A study of Mus musculus with 4 samples.

Results

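Scar-associated macrophages are monocyte-derived cells of fibrotic liver, described in human cirrhosis as TREM2+ CD9+ cells next to the scar. The 8 genes examined here are known markers of that state: Trem2, Tyrobp, Gpnmb, Cd9, Cd63, Fabp5, Lgals3 and Spp1. They were followed through the open-chromatin peaks that the authors' annotation assigns to each by name, as promoter or distal peaks. That gave 46 peaks in the Mertk knockout library and 44 in the wild-type library, out of 105188 and 71726 promoter and distal peaks in all. The genes were 8 of the 25458 with a peak in either library.

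The libraries came from liver after bile duct ligation, a surgical model of cholestasis and fibrosis, and every group carried that ligation. The tested genotype was Mertk knockout and its control was wild type, with 1 RNA and 1 ATAC library each, made from the same nuclei with the Multiome kit of 10x Genomics. Mertk encodes a receptor tyrosine kinase that macrophages use to take up dying cells. The labels give no strain, age, sex, time after ligation, allele design or number of animals behind a library. No genotype was replicated, so every difference below describes 1 library set beside another and carries no test. Mertk itself had 13 peaks in the knockout and 10 in the wild-type library, with 1 promoter peak in each. The labels do not say which part of Mertk is deleted, and peak positions alone cannot show whether it is missing.

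The Trem2 receptor sits on the surface of macrophages, binds lipids and lipoproteins, and signals through the adaptor protein that Tyrobp encodes. Gpnmb is a membrane glycoprotein of phagosomes and lysosomes, Cd63 and Cd9 are tetraspanins of late endosomes and of the cell surface, and Fabp5 carries fatty acids inside the cell. Lgals3 encodes the lectin galectin 3, and Spp1 encodes osteopontin, a secreted protein that binds integrins and CD44. Some of these genes are also active outside macrophages. Cholangiocytes express Spp1, and Cd9 and Cd63 are widely expressed. Peaks were called over all nuclei of a library, so fewer nuclei of a type and less open chromatin per nucleus cannot be told apart.

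The sequences at the start sites are shown first, because the libraries differed there for some of the genes and not for others. Each is the RefSeq window (GRCm38.p6) from 250 bases before to 50 after the start, on the plus strand, which is the strand of all 4 genes. In Trem2 (chr17:48346151-48346450), the window lay whole inside a peak of each library. In Spp1 (chr5:104434861-104435160), it lay whole inside a wild-type peak and outside every knockout peak. In this pair the capitals mark matches to searched motifs.
Trem2: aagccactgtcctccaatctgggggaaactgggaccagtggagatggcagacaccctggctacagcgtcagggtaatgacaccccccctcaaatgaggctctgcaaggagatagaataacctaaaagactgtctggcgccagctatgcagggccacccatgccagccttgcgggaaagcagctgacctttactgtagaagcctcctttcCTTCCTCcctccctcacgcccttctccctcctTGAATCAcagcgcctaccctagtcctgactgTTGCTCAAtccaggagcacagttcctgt
Spp1: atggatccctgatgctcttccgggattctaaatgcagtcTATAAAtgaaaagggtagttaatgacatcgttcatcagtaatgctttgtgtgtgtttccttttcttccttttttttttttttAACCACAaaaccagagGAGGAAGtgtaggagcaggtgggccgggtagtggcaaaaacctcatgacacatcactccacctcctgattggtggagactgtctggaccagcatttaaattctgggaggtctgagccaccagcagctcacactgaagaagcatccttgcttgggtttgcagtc

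For Gpnmb (chr6:49036268-49036567) and Lgals3 (chr14:47373610-47373909), the wild-type peak covered part of the window and no knockout peak reached it. Here the capitals mark the bases inside the wild-type promoter peak, which are bases 1 to 165 of the Gpnmb window and bases 35 to 300 of the Lgals3 window.
Gpnmb: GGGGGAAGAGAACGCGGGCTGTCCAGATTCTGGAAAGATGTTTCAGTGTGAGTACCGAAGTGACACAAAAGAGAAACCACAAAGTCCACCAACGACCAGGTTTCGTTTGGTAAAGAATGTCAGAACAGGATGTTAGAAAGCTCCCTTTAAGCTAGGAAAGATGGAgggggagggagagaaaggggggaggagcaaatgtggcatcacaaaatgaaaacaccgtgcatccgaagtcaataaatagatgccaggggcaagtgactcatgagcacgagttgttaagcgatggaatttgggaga
Lgals3: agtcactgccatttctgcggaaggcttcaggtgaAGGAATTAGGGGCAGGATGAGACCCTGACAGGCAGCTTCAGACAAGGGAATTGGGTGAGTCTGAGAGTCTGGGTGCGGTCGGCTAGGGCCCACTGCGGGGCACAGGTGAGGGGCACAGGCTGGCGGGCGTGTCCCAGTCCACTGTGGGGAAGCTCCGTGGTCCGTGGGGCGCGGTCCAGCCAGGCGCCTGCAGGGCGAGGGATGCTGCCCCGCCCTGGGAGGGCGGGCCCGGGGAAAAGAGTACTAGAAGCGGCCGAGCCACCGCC

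The promoters of 5 genes were open at like positions in both libraries. At Trem2 the promoter peak was 883 bp wide in the knockout library (chr17:48345956-48346838) and 833 bp in the wild-type library (chr17:48345952-48346784), and the 2 peaks had 829 bp in common. Tyrobp, which lies on chromosome 7 (30413782 to 30417582), had 2 promoter peaks in each library. The one over its start was 829 bp wide in the knockout and 824 bp in the wild-type library, with 749 bp in common, and the one upstream was 849 and 833 bp wide, with 792 bp in common. The receptor gene and the gene of its adaptor thus had a peak over the start site in both genotypes.

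The tetraspanin and lipid-carrier genes had the same arrangement. At Cd9 (chromosome 6, 125460266 to 125494760, minus strand) the promoter peaks were 920 bp wide in the knockout and 916 bp in the wild-type library and had 885 bp in common. At Fabp5 (chromosome 3, 10012585 to 10016610) the whole wild-type promoter peak of 862 bp lay inside the knockout peak of 888 bp. At Cd63 the promoter peaks of 846 and 883 bp had 830 bp in common, and both began after the start site at position 128909345 of chromosome 10, by 51 bp in the knockout and 67 bp in the wild-type library. Cd63 was therefore a gene whose RefSeq promoter window was covered in neither library, though both had a promoter peak next to it. By the authors' own distances, which refer to a different start, both Cd63 promoter peaks lay at 0 bp.

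Gpnmb, Lgals3 and Spp1 differed at the start site. By the authors' annotation, 6 of the 8 genes had a promoter peak in both libraries, 2 had one in wild type alone (Lgals3 and Spp1) and 0 had one in the knockout alone. Over the 17563 genes with a promoter peak in either library, 3.17% had theirs in wild type alone, and 15.4% had it in the knockout alone. Among the 6 genes with a RefSeq promoter window, 3 had it covered in wild type alone, 2 in both and 1 in neither. Of the 13569 windows covered in either library, 3.31% were covered in wild type alone and 15.7% in the knockout alone.

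At Spp1 (chromosome 5, 104435111 to 104441053), the wild-type library had an 829 bp peak over the start (chr5:104434568-104435396). The knockout library had no peak within 1 kb of the start. Its nearest peak was 1062 bp wide, ended 1673 bp upstream (chr5:104432377-104433438), and lay 1129 bp from the wild-type promoter peak without touching it. Spp1 was the member whose wild-type promoter peak overlapped no knockout peak.

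Lgals3 (chromosome 14, 47373860 to 47386167) differed in how the start region was divided. The knockout library had a single peak of 700 bp that ran from 255 to 954 bp after the start (chr14:47374115-47374814), and the authors call it distal. The wild-type library had 2 peaks there, a promoter peak of 533 bp over the start (chr14:47373644-47374176) and a distal peak of 438 bp behind it (chr14:47374276-47374713). The knockout peak overlapped the first by 62 bp and held the whole of the second. Of 13738 wild-type promoter peaks shared with the knockout library, 17 (0.124%) overlapped by 62 bp or less. That limit is the Lgals3 overlap itself, so the share describes this pair and is no test. Counted as any peak within 1 kb of the RefSeq start, a criterion chosen after the data were seen, Lgals3 had a peak in both libraries. Spp1 was then the 1 member with such a peak in wild type alone, against 3.28% of the 15358 start sites with a peak in either, while 16.2% had theirs in the knockout alone.

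At Gpnmb (chromosome 6, 49036518 to 49058182), both promoter peaks lay upstream of the start, and that of the knockout library was the shorter. It was 382 bp wide and ended 376 bp before the start (chr6:49035761-49036142). The wild-type peak was 789 bp wide, held the whole knockout peak and ended 86 bp before the start (chr6:49035644-49036432). By the authors' own distances, which refer to a slightly different start, the peaks ended 473 bp and 183 bp upstream. Of 17419 knockout promoter peaks, 38 (0.218%) were 382 bp wide or less, as were 0.157% of the wild-type promoter peaks. That limit is the width of the Gpnmb peak itself, so the shares describe this peak and are no test.

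**Figure D1:**
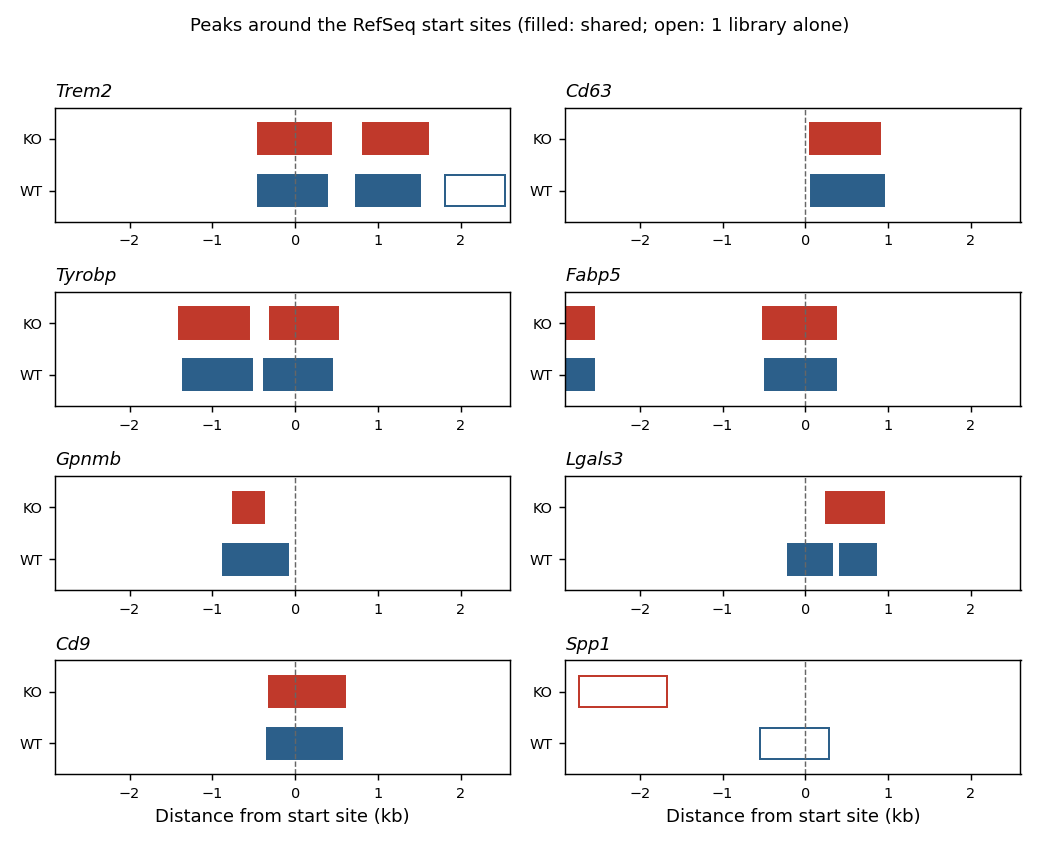
Peaks around the RefSeq start site of each gene (x axis, distance in kb, negative upstream), knockout library above wild type, filled where a peak overlaps one of the other library and open where it does not. At Spp1 the wild-type peak spans the start and the nearest knockout peak ends 1673 bp upstream, at Lgals3 the knockout peak begins 255 bp after the start, and at the other genes each promoter peak overlaps one of the other library.

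The promoter windows were searched on both strands for short sites of factors known in macrophages, in the 6 genes with a window in the RefSeq table. The ETS core GAGGAAG, which PU.1 binds, was found in 3 of the 6 windows (Trem2, Cd63 and Spp1), against 13.5% of all 27025 windows. The RUNX site TGTGGTT was found in 2 (Gpnmb and Spp1), against 5.37%. The AP-1 site TGANTCA was found in Trem2 and Gpnmb, against 7.93%, and the C/EBP site TTGCNNAA in Trem2, against 10.8%. The letters TATAAA were found in Spp1, against 14.2%, 211 to 206 bases before the start and so away from where a TATA box is known to work. The MiT/TFE sites TCACGTGA and TCATGTGA, held by 1.01% and 0.981% of all windows, were found in none of the 6. No 2 matches overlapped within a member's window. A match is a description of letters and does not show binding.

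The matches can be set against the peaks. In the Spp1 window the RUNX match lay 129 to 123 bases and the ETS match 113 to 107 bases before the start, both inside the wild-type peak and outside any knockout peak. In the Gpnmb window the RUNX match, 176 to 170 bases before the start, was likewise inside the wild-type peak alone, while the AP-1 match after the start was in no peak of either library. The 3 matches of Trem2 were inside peaks of both libraries. The Cd63 match was in no peak. The Lgals3 window held none of the searched motifs and the Cd9 window held none, and at 67.0% and 61.3% these had the highest shares of G and C among the 6, where the median window had 52.7%.

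Away from the promoters, 24 of the 39 knockout distal peaks (61.5%) and 24 of the 35 wild-type distal peaks (68.6%) met a peak of the opposite genotype over 1 bp or more. Over the whole lists the shares were 43.7% of knockout and 67.1% of wild-type distal peaks. The member share in the wild-type library thus lay near that of all peaks, and the knockout share above it, with no test between them. Of the promoter peaks, 7 of 7 in the knockout and 8 of 9 in the wild-type library were shared, against 78.9% and 93.5% over all genes. Merged over both libraries, the peaks formed 58 regions, of which 31 were open in both, 15 in the knockout alone and 12 in wild type alone. Where peaks were shared they lay close together, with a median shift of their centres of 38 bp seen from the knockout list and 39 bp from the wild-type list. This was about the shift in an evenly spaced subset of the shared peaks of all genes (36.5 and 37.0 bp).

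**Figure D2:**
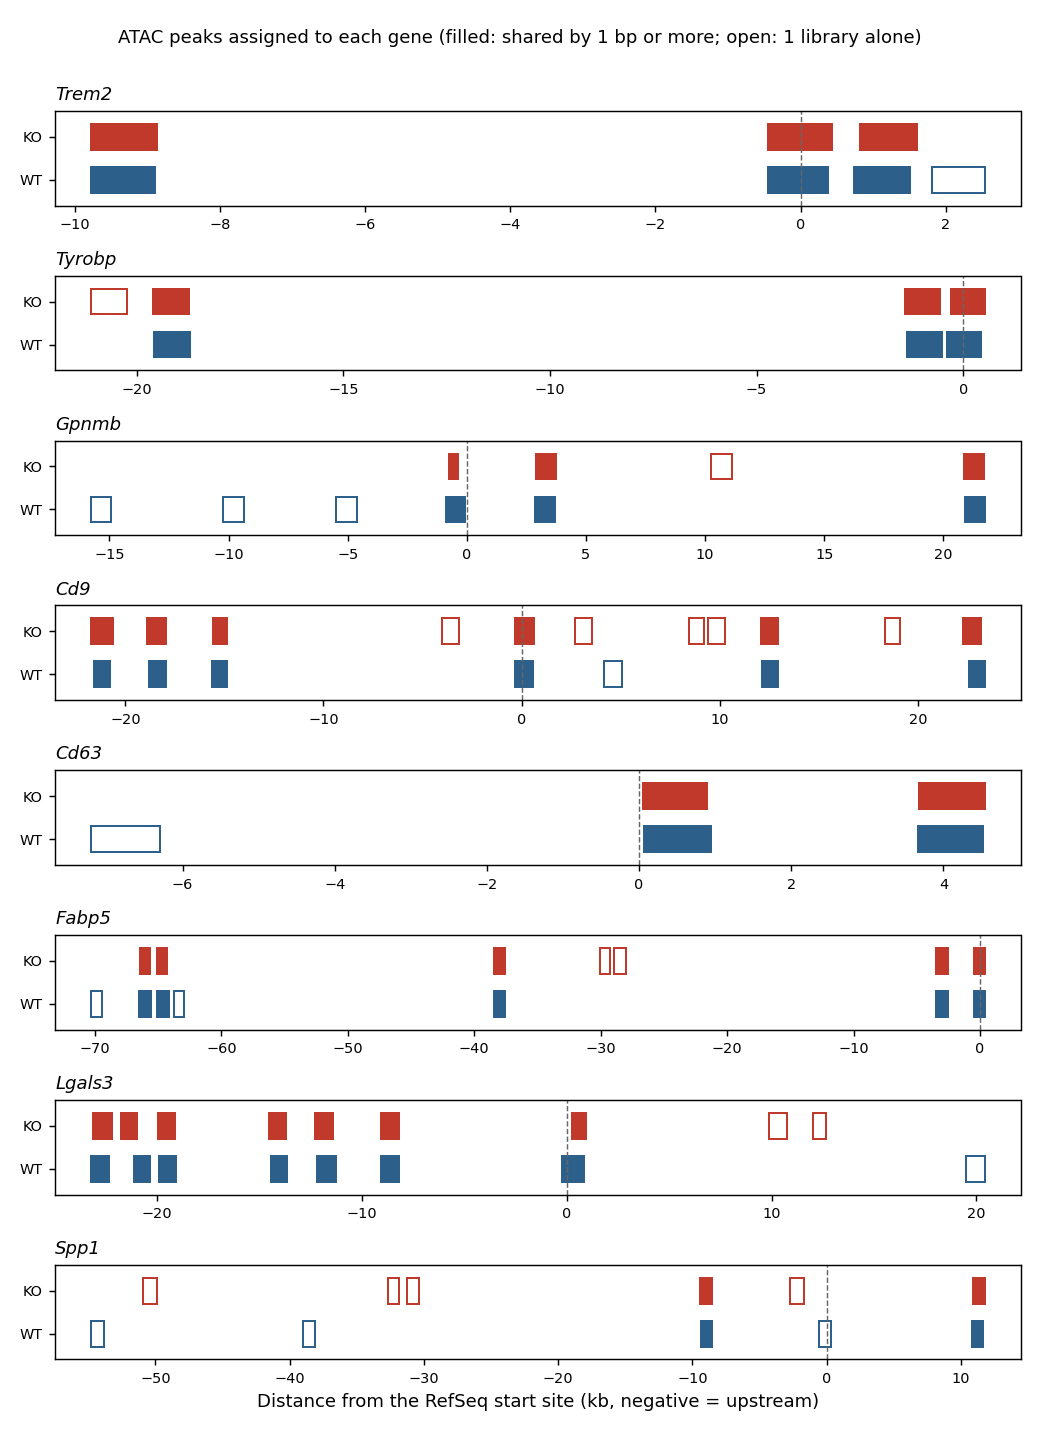
All peaks assigned to the 8 genes, by distance from the RefSeq start site (x axis, kb, negative upstream, a scale of its own for each gene), knockout library above wild type. Filled boxes overlap a peak of the other library and open boxes do not: the 6 upstream peaks of Lgals3 are filled in both rows, while the 3 upstream Gpnmb peaks are open and in the wild-type row alone.

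By difference in number, Gpnmb had the largest surplus of distal peaks in the wild-type library, with 3 knockout and 5 wild-type distal peaks. No knockout peak was assigned to it upstream of its promoter peak, where the wild-type library had 3, from 15.8 to 4.60 kb before the start (chr6:49020741-49021600, chr6:49026267-49027178 and chr6:49031020-49031917). The nearest knockout peaks were 3.84 to 8.58 kb away from these. Inside the gene the knockout library had 1 peak of its own, 889 bp wide and beginning 10.3 kb after the start (chr6:49046768-49047656). A peak beginning 2.89 kb after the start in the knockout and 2.84 kb in the wild-type library was shared, as was one at the end of the gene that the authors also assign to Malsu1.

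Trem2 had 3 knockout and 4 wild-type peaks, and all 3 knockout peaks were shared. The additional wild-type peak (chr17:48348217-48348939) began 1.82 kb after the start inside the gene and was 215 bp from the nearest knockout peak. The upstream Trem2 peak, about 9 kb before the start, was 911 bp wide in the knockout and 885 bp in the wild-type library, and the wild-type peak lay whole inside the knockout one. Tyrobp had 4 and 3 peaks, with all 3 wild-type peaks shared. Its additional peak was in the knockout library, 20.2 to 21.1 kb upstream (chr7:30392675-30393536) and 661 bp from a wild-type peak. For the receptor and its adaptor, the differing peaks were therefore 1 each, in opposite directions and next to shared peaks.

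Cd9 had the largest surplus in the knockout library, with 11 peaks against 7. In both libraries 6 Cd9 peaks were shared: the promoter, 3 upstream between 14.8 and 21.7 kb before the start, and 2 in the gene body. The knockout library had 5 more, of which 4 lay in the gene body between 2.71 and 19.1 kb after the start and 1 lay between 3.14 and 4.04 kb upstream. The wild-type library had 1 of its own in the gene body (chr6:125489678-125490606), 616 bp from a knockout peak. The authors also assign 8 of the 11 knockout and 4 of the 7 wild-type peaks to the predicted genes Gm26728 or Gm28809, so these counts are not particular to Cd9. Cd63, the other tetraspanin, had 2 knockout peaks, both shared, against 3 wild-type peaks. The additional one (chr10:128902141-128903052) lay 6.07 kb from the nearest knockout peak, upstream of the start used here and inside a longer form of the gene. The last Cd63 peak of each library is also assigned to Rdh5.

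Lgals3 had 9 peaks in each library. All 6 peaks between 8.17 and 23.2 kb upstream were shared, though 1 of these pairs had just 175 bp in common (chr14:47352096-47352891 in the knockout and chr14:47352717-47353490 in the wild-type library), with centres 610 bp apart. The knockout library had 2 peaks of its own toward and across the far end of the gene, beginning 9895 and 12041 bp after the start. The wild-type library had 1 of its own behind the gene, 19.5 kb after the start, which the authors also assign to Dlgap5.

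Fabp5 had 7 peaks in each library, 5 of them shared, and all of its distal peaks were upstream. The 2 knockout peaks of its own stood side by side (chr3:9982539-9983302 and chr3:9983655-9984567), between 28.0 and 30.0 kb before the start, and lay 7.55 and 8.66 kb from the nearest wild-type peak. The 2 wild-type peaks of its own (chr3:9942275-9943174 and chr3:9948864-9949666) flanked the farthest pair of shared peaks. Spp1 shared least, with 2 of its 6 knockout and 2 of its 5 wild-type peaks overlapping. The shared pair lay 8.52 to 9.47 kb upstream and behind the gene. The 4 knockout peaks of its own were between 1.67 and 50.9 kb upstream, and the 3 wild-type ones were the promoter peak and 2 between 38.1 and 54.8 kb upstream.

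The summed length of the peaks assigned to a gene, called accessible length here, follows from these positions. It was 39.2 kb over the 8 genes in the knockout library and 37.1 kb in the wild-type library. The knockout list as a whole had 1.47 times as many peaks (106319 against 72302) and covered 91.3 Mb against 61.8 Mb, with mean peak widths of 859 and 855 bp. Its 5339 nuclei held 83996145 ATAC fragments, against 40858512 in the 5828 wild-type nuclei, and 11083766 RNA molecules, against 31798452 in wild type. Of the barcodes called as nuclei, 44 were found in both libraries, 0.824% of the knockout and 0.755% of the wild-type nuclei. Accessible length is therefore given beside that of the median gene. The part of depth in the members' values was not tested.

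By gene, Trem2 had 2.58 kb of accessible length in the knockout and 3.21 kb in the wild-type library, and Tyrobp 3.41 and 2.53 kb. Gpnmb had 2.94 kb in the knockout and 5.13 kb in the wild-type library. Cd9 had 9.56 and 5.94 kb, and Cd63 1.71 and 2.65 kb. These 5 split, with Tyrobp and Cd9 longer in the knockout library and Trem2, Gpnmb and Cd63 longer in the wild-type library. Fabp5 had 5.95 kb in the knockout and 6.23 kb in the wild-type library. Lgals3 had 7.36 and 7.03 kb, and Spp1 5.69 and 4.41 kb. In all, the knockout library was the longer for 4 of the 8 genes.

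**Figure D3:**
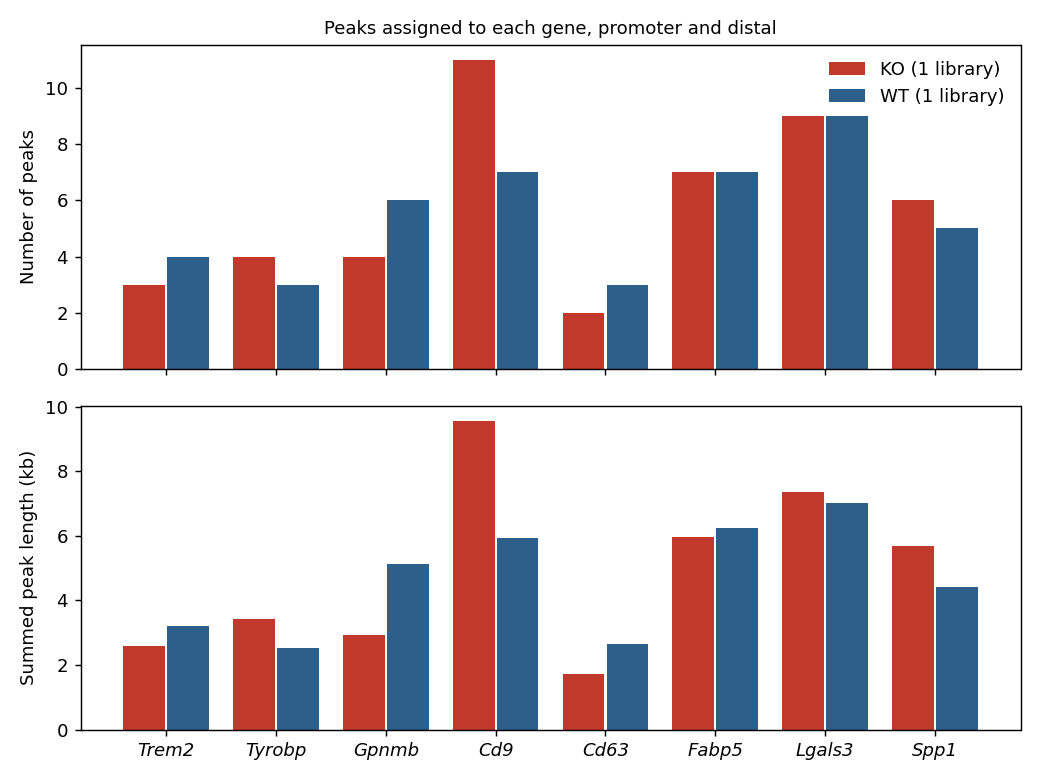
Number of assigned peaks (top) and their summed length in kb (bottom) for each gene, knockout bar left of wild type, 1 library each and no error bars. Gpnmb has 4 knockout and 6 wild-type peaks, Cd9 has 11 and 7, and Lgals3 and Fabp5 have equal numbers.

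The ratio of accessible length was taken as log2 of knockout over wild type with 1 kb added to both, and centred by subtracting 0.39, the median over the 14692 genes with a mean of at least 2 kb. All 8 members reached that mean, the lowest being Cd63 at 2.18 kb. A centred ratio at or beyond 1 or -1 was called higher or lower, a rule of size with no test behind it. Gpnmb was lower, at -1.03, and none of the members was higher. Over all measured genes, 4.08% were lower and 10.3% higher. The call of Gpnmb just met the rule, and it was lost with a pseudocount of 2 kb (-0.85), with peak numbers in place of lengths (-0.90), with all peaks within 50 kb of the gene (-0.80) and without centring (-0.64).

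The other members lay between the limits. Cd63 had a centred ratio of -0.82, Trem2 of -0.63, Fabp5 of -0.45 and Lgals3 of -0.33. Spp1 at -0.09 and Tyrobp at -0.07 were near the median gene, and Cd9 at 0.21 was the member above it. Cd9 was below it, at -0.25, without peaks that are also assigned to another gene, and level with it (0.00) with all peaks within 50 kb. Spp1 was above it with distal peaks alone (0.12) and with the widest knockout peaks (0.29). The median of the members was -0.39, beside quartiles of -0.38 and 0.45 over all measured genes. Without centring it was 0.00, with 4 members below and 4 above zero, so as a list the members had about equal length in both libraries while the median gene had more in the knockout.

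Genes known to work with the members were examined as lists. The wider programme of scar-associated and lipid-associated macrophages held 37 genes of lipid handling, lysosomes and matrix breakdown. Of its 30 measured genes, 1 was lower and none higher, and the median was -0.24. The shares over all measured genes were 4.08% lower and 10.3% higher. The lower gene was Itgax, an integrin gene of dendritic cells and macrophages, with 3 knockout and 7 wild-type peaks (-1.34). Others went the opposite way without meeting the rule. Ctsl, a lysosomal protease gene, had 9 and 3 peaks (0.81), Axl, which encodes a TAM receptor related to Mertk, 10 and 4 (0.75), and the lipoprotein lipase gene Lpl 16 and 7 (0.75). The knockout alone had promoter peaks of Mmp12, Mmp14, Atp6v0d2, Vim and Igf1, and wild type alone that of Cst7, which had no other peak. The other 30 genes with a promoter peak had one in both libraries. Over all genes with a promoter peak in either library, 15.4% had theirs in the knockout alone and 3.17% in wild type alone.

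The list of Trem2 and Tyrobp signalling partners, with other receptors that use such adaptors, had 6 of 21 measured genes lower and none higher. Of all measured genes, 4.08% were lower and 10.3% higher. The list had a median of -0.59, with 19 of the 21 below the median gene. Treml4, in the same gene cluster as Trem2, had 2 knockout and 8 wild-type peaks (-1.81). Clec5a, a lectin receptor that signals through Tyrobp, had 2 and 5 (-1.24), with a promoter peak in wild type alone. Adam10, which encodes a protease that sheds Trem2 from the cell surface, had 4 and 10 (-1.42), and the kinase gene Pik3cg 5 and 9 (-1.10). Sirpb1a had 1 and 9 peaks (-2.53) and Sirpb1b 4 and 8 (-1.28). These 2 are near-identical neighbours, between which reads may be split or lost, so their values are uncertain. The exception at a promoter was Treml2, whose promoter peak was in the knockout alone. Without centring, 3 of the 21 were lower, against 1.34% of all measured genes, and the median of the list was -0.19.

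Among 25 measured transcription factors of macrophage identity and of the lysosomal and lipid programme, none was higher or lower, with a median of -0.20. The lowest were Nfe2l2, with 4 knockout and 6 wild-type peaks (-0.87), Tfec, a factor of the MiT/TFE family, with 9 and 12 (-0.79), and the lipid-sensing receptor gene Nr1h3, with 2 and 3 (-0.72). Maf had 16 and 6 (0.90), and the promoter peak of Fosl2 was in the knockout library alone. Receptors for osteopontin and galectin 3, with relatives of the tetraspanins and fatty-acid carriers, had a median of 0.04 over 19 genes, with 1 lower and 1 higher. Those counts stand beside 4.08% lower and 10.3% higher over all measured genes. Itga4, an integrin subunit gene that pairs with Itgb1 to bind osteopontin, had 8 and 19 peaks (-1.51) and a promoter peak in wild type alone. Itgb1 itself had 12 and 17 (-0.81). Sdc4, a heparan sulfate proteoglycan gene, had 5 and 1 (1.07), Ptgfrn 8 and 3 (0.79), and Fabp1, a fatty-acid carrier gene of hepatocytes, 9 and 5, with its promoter peak in the knockout library alone.

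**Figure D4:**
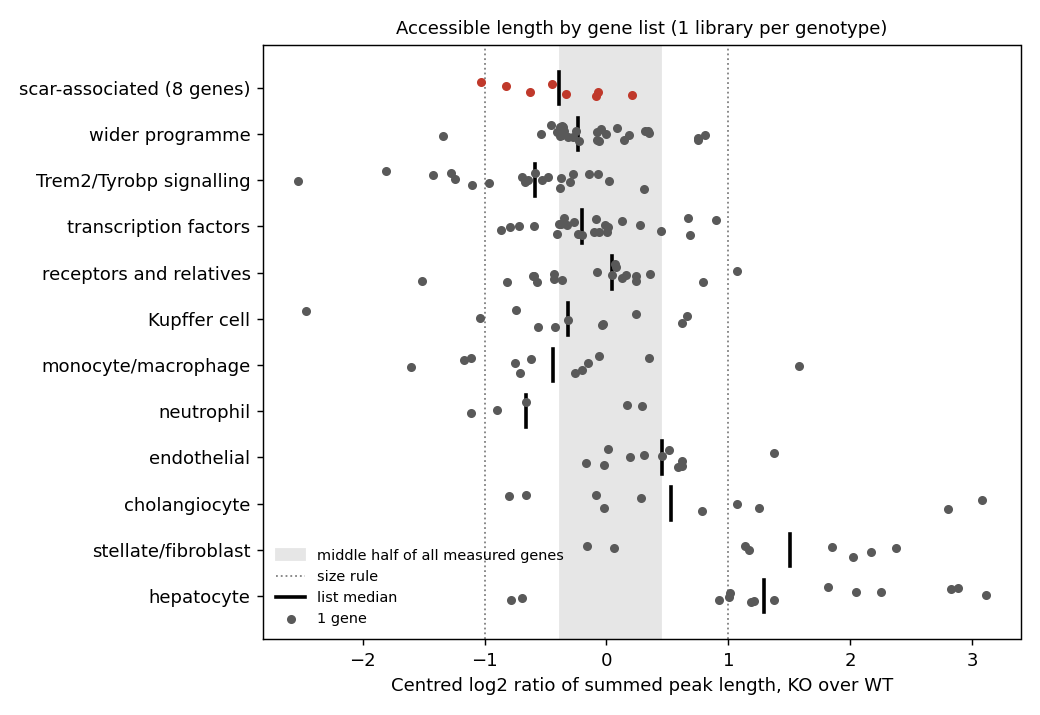
Centred log2 ratio of accessible length, knockout over wild type (x axis), for each measured gene of 12 lists (rows). Points are single genes, black bars are list medians, the grey band runs between the quartiles of all measured genes, and dotted lines mark 1 and -1: the median of the 8 genes is -0.39, that of the signalling list -0.59 and that of hepatocyte markers 1.29.

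Markers of the cell types in the tissue differed between the same libraries. Beside the counts of calls given here, 4.08% of all measured genes were lower and 10.3% higher. General monocyte and macrophage markers had 87.4 kb in the knockout and 90.3 kb in the wild-type library, with a median of -0.44 over 12 genes. Ccr2 (5 and 9 peaks, -1.11), Itgam (8 and 15, -1.17) and Ms4a7 (2 and 6, -1.60) were lower, Fn1 (8 and 1, 1.58) was higher, and S100a4 had its single peak, at its promoter, in wild type. Kupffer cell markers had 57.3 kb in the knockout and 59.2 kb in the wild-type library, with a median of -0.31 over 11 genes. Vsig4 (1 and 8, -2.46) and Folr2 (3 and 5, -1.04) were lower and none was higher. Of the 11, 8 lay below the median gene and 3 above it, the highest being C6 (7 and 3, 0.66). The promoter peak of Vsig4 was in wild type alone and that of Il18bp in the knockout alone. Every listed Kupffer marker had a peak in each library. Before centring, the summed lengths of both lists were thus level between the libraries, as were those of the 8 genes. On the centred scale, 10 of the 12 monocyte and macrophage markers lay below the median gene and 2 above. Of the 8 genes, 7 lay below it and 1 above.

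Other lists differed more, beside the same shares of 4.08% lower and 10.3% higher over all measured genes. Hepatocyte markers had 102 kb in the knockout and 22.9 kb in the wild-type library, with 11 of 14 measured genes higher, and 6 of 15, Alb among them, had no wild-type peak. The wild-type library is labelled liver, and 13 of the 15 hepatocyte markers lacked a promoter peak in it. Stellate cell and fibroblast markers had 68.1 kb in the knockout and 15.9 kb in the wild-type library, with 6 of 8 measured genes higher, a median of 1.51, and 0 of 12 lacking any peak in the knockout and 5 in the wild-type library. Cholangiocytes are a known source of Spp1, and their markers had 66.4 and 27.5 kb, with a median of 0.53, with 2 of 14 lacking a peak in the knockout and 4 in the wild-type library. Among them Bicc1 was higher, with 10 knockout and 3 wild-type peaks, as was Onecut1, with 9 and 2, and Pkhd1, with 9 and 0. Endothelial markers had 146 kb in the knockout and 83.0 kb in the wild-type library, with 1 of 11 higher and a median of 0.45. Neutrophil markers had 30.7 and 31.2 kb, with 1 of 5 measured genes lower and a median of -0.66, which became 0.17 with no minimum length. The part of these cell types in the peaks of the 8 genes was not tested.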

How the data were processed

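RNA and ATAC libraries were made from the same nuclei of frozen liver, 1 of each per genotype. Per the file headers, the authors ran cellranger-arc 2.0.2 on mm10, separately for each genotype. Settings for calling peaks were not given in the sources used here. Deposited peaks carry positions without height or score. Raw counts of fragments and RNA molecules per barcode, as deposited, served for depth alone. No matrix of genes by nuclei was used here, and no doublet caller was run.

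Peaks on unplaced contigs were left out, 44 in the knockout and 43 in the wild-type list. Positions are 1-based on mm10. Start sites are those of RefSeq on GRCm38.p6, the same assembly. For Tyrobp and Fabp5 the edge of the gene was used, and 6 of the 8 genes had a promoter sequence. Peaks were shared if they overlapped by 1 bp. Overlaps and ratios were computed in Python 3.11.15 (pandas 2.3.3, numpy 2.4.6). Overlap counts were checked with bedtools 2.31.1 and ratios tested on simulated data.

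The members, the 12 lists and the motifs were chosen with earlier results of these data known. Of other lists, genes are named that met the size rule, had a promoter peak in 1 library alone or were among the 4 largest absolute ratios, as are genes that share a peak with a member. From the lists of hepatocyte, stellate cell, endothelial and neutrophil markers, and in part from other lists, such genes are given as counts or sums.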

Additional observations from a re-analysis of the deposited data

How the results depend on the processing

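No paired analysis was possible because no genotype was replicated, and so no replicate could be left out. With no spread between replicates, a ratio was held to have moved if it changed by 0.5 or more on the log2 scale. The call of 1 member as lower, Gpnmb, became 0 with a pseudocount of 2 kb, with peak numbers, with all peaks within 50 kb of the gene and without centring. With the widest knockout peaks alone, as many as the wild-type list holds, Gpnmb was at -1.71. In that setting the members had 28 knockout peaks in place of 46, of which 19 were shared, as were 19 of the wild-type peaks, and 5 members had a promoter peak in wild type alone, as did 21.7% of all genes with a promoter peak in that setting, since it removes knockout promoter peaks. With any peak within 1 kb of the RefSeq start, chosen after the data were seen, that number was 1 in place of 2. With peaks of at least 500 bp it was 3, since the knockout promoter peak of Gpnmb is shorter than that. Cd63 changed from -0.82 to 0.15 with all peaks within 50 kb. The cause was not tested, apart from the fewer knockout peaks that the width limit leaves. No measured member was higher in any of the 10 alternatives to the ratio, with 6 measured for distal peaks alone, and 7 without peaks assigned to another gene and with the widest knockout peaks. Over all genes, 600 were lower and 1514 higher (71.6% of calls), and without centring 197 and 2884 (93.6%). Demanding an overlap of 50% of the shorter or of both peaks, or a width of 500 bp, kept the counts of shared peaks within 1.5 times. The peak lists give no heights, so how many reads lie behind a peak is unknown.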
